A study of Mus musculus with 8 samples.

Results

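The genes of the ADAM, ADAMTS and ADAMTSL families were followed in cultured mouse fat cells that had been given either the solvent DMSO or DoxSa. Members were the protein coding rows of the expression table whose symbol is Adam, Adamts or Adamtsl followed by a number and at most 1 letter. This gave 46 genes of 22962 in the table (17060 protein coding), namely 22 ADAM, 19 ADAMTS and 5 ADAMTSL genes. The cells of both groups were wild type, came from the stromal vascular fraction of gonadal fat, and are labelled as mature adipocytes after differentiation, with treatment on day 6. The age, sex and number of animals are not given in the labels, and DoxSa is not spelled out there, although the series title concerns 1-deoxysphingolipids. Each group held 4 libraries, numbered 1 to 4. The labels leave unsaid whether each library had its own culture or animal. The p-values therefore describe the spread among these 8 libraries, which may be technical.

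ADAM proteins are membrane-anchored metalloproteinases with a disintegrin domain. The active ones cut the extracellular part off other membrane proteins, a step called shedding that frees cytokines and growth factors and starts Notch signalling. ADAMTS proteins are secreted relatives with thrombospondin repeats that cut proteoglycans and procollagens of the extracellular matrix, and ADAMTSL proteins share the repeats but lack the protease domain and bind the fibrillin network. In fat tissue such proteases are known for their part in matrix remodelling as adipocytes form and enlarge.

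The deposited annotation followed this division. The term metalloendopeptidase activity was attached to 22 of 22 ADAM, 19 of 19 ADAMTS and 1 of 5 ADAMTSL genes, and to 0.569% of all protein coding genes. The term extracellular matrix was attached to 19 of 19 ADAMTS and 5 of 5 ADAMTSL genes but to 0 of 22 ADAM genes, and plasma membrane to 19 of 22 ADAM genes and to 0 of the other 24. Reactome's O-glycosylation of proteins with thrombospondin repeats listed 16 ADAMTS and 5 ADAMTSL genes, which made up 21 of its 32 protein coding members.

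Levels are given in FPKM, read counts scaled by gene length and library size, which allows levels of different genes to be compared. The libraries held between 39213008 and 41365861 reads. The cultures expressed adipocyte marker genes at high levels, and 0 of the 10 markers were called by limma. These markers summed to between 10165 and 10875 FPKM over the 8 libraries. Most of the sum was Fabp4 (8698 FPKM on average in DMSO, 8852 in DoxSa), the only one with a higher mean in DoxSa. Slc2a4, Lipe and Cidec were lower at an unadjusted limma p of 0.0140, 0.0319 and 0.0374. The cultures also expressed macrophage marker genes (9 markers, between 5280 and 6337 FPKM in sum), so the RNA is that of a mixed culture. In such bulk RNA, fewer cells of a type and less RNA per cell cannot be told apart. Of the other marker lists, that of smooth muscle stood at 586 to 653 FPKM in sum in DMSO and 411 to 466 in DoxSa. Most of this sum was Acta2 and Tagln, while Myh11, Des and Rgs5 averaged 0.616, 0.994 and 0.109 FPKM over the 8 libraries. Endothelial and lymphocyte markers summed to at most 2.09 and 0.120 FPKM in any library. The mesothelial list summed to 16.8 to 17.3 FPKM in DMSO and 11.6 to 16.2 FPKM in DoxSa. Nearly all of it was Krt19, which was lower in every DoxSa library but not called (limma adjusted p = 0.113).

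Of the 46 members, 36 had reads in all 8 libraries, and 23 had a mean of at least 0.5 FPKM and entered the test (10 ADAM, 10 ADAMTS and 3 ADAMTSL genes). The tested members fell into a high range from 14.7 FPKM (Adam19) to 84.8 FPKM (Adam9), a middle range from 2.99 FPKM (Adamts10) to 4.70 FPKM (Adamtsl5) and 4 genes under 1 FPKM. The high range held 12 genes. In order of mean level these were Adam9, Adam15, Adamts2, Adam8, Adam17, Adamts5, Adam10, Adamts1, Adam12, Adam23, Adamts12 and Adam19. Adam9, Adam15, Adamts2 and Adam8 each lay above 56 FPKM in every library. None of the ADAMTSL genes lay in the high range.

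**Figure D1:**
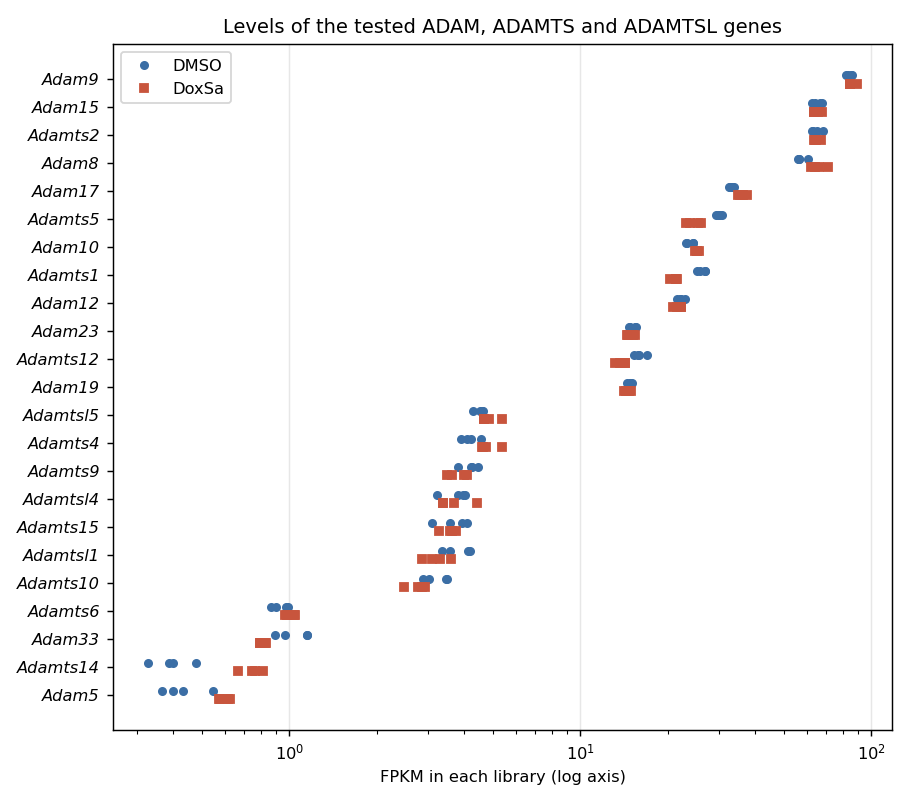
FPKM of each of the 23 tested members in every library on a log axis, with DMSO libraries as circles and DoxSa libraries as squares. Adam9 is highest at a mean of 84.8 FPKM and Adam5 lowest at 0.517 FPKM, and for 11 genes the circles and squares do not overlap.

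Of the 23 tested members, 2 rose (Adam8 and Adamts14) and 3 fell (Adamts1, Adamts5 and Adamts12) in DoxSa at a Benjamini-Hochberg adjusted p under 0.05 over all 12060 tested genes, by limma on log2(FPKM + 1). Over all tested genes 5.90% were called, 3.88% higher and 2.02% lower. The groups did not overlap for 11 of the 23 members, against 12.5% of all tested genes. The median log2 fold change was -0.01 over the members and 0.01 over all tested genes. By subfamily, 4 of 10 ADAMTS genes, 1 of 10 ADAM genes and 0 of 3 ADAMTSL genes were called, and this difference between subfamilies was not tested. The 0 calls of ADAM genes that were lower and of ADAMTSL genes in either direction were from limma. At an unadjusted p under 0.05 there was 1 lower ADAM gene, 1 lower ADAMTSL gene and 0 higher ADAMTSL genes, and among the same tested genes the planned voom fit also called 0 of them. The summed level of the 22 ADAM genes was 318 ± 2.76 FPKM with DMSO and 331 ± 3.95 FPKM with DoxSa (SD, n = 4), and that of the 19 ADAMTS genes was 154 ± 3.23 and 142 ± 2.98 FPKM. Neither pair of ranges overlapped. These sums include the called members Adam8, Adamts1, Adamts5 and Adamts12, all of them in the high range. Of the tested ADAM genes 5 had a positive and 5 a negative log2 fold change, and of the tested ADAMTS genes 4 and 6. The sums therefore do not show a change of whole subfamilies. The ADAMTSL sum was 12.5 ± 0.913 and 12.1 ± 0.896 FPKM, with overlapping ranges.

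Promoter sequences help to show what the called members have in front of their start sites. RefSeq's promoter table, on build GRCm38.p6, holds entries for 24 of the 46 members and 4 of the 5 called ones. The values themselves were made on GRCm39, and the table of values gives no coordinates. The 250 bases before the annotated start are printed for these 4 genes, read 5′ to 3′ on the gene's strand, with every match to a searched motif in capitals.

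Adamts1, chr16:85803114-85803363, minus strand: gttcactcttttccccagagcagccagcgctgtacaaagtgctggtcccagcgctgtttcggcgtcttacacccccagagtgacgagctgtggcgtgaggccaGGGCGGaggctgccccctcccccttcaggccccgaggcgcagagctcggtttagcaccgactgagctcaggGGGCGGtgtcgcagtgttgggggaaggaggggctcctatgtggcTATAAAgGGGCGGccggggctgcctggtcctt

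Adamts12, chr15:11064523-11064772, plus strand: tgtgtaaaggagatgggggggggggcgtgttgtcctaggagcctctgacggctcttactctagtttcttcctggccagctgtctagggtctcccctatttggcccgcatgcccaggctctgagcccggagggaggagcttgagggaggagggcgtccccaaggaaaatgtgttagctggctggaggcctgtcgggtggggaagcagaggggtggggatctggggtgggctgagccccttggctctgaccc

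Adam8, chr7:139992563-139992812, minus strand: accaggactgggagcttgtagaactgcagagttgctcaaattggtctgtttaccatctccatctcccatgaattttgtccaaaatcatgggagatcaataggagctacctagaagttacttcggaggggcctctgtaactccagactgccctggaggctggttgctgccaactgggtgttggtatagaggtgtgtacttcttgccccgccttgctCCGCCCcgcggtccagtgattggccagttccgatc

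Adamts14, chr10:61273420-61273669, minus strand: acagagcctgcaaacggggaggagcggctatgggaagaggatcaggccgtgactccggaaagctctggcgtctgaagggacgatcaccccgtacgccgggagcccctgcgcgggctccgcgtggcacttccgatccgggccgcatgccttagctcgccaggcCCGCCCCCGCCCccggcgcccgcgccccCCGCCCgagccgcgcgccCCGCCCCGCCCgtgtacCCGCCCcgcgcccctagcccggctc

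The motifs searched, on both strands, were the GC box GGGCGG, the TATA box TATAAA, the AP-1 site TGANTCA, the cAMP response element TGACGTCA, the NF-kB site, the ATF4-C/EBP composite TGATGNAA, the antioxidant response element TGACNNNGC, the TEAD site GGAATG and the E-box CACGTG. The windows held only GC boxes and 1 TATA box. Adamts14 had 6 GC boxes, of which 2 share a base and another 2 lie directly beside each other. Adamts1 had 3 GC boxes and a TATA box from 32 to 27 bases before the start, Adam8 had 1 GC box and Adamts12 had 0 matches. Over all 32851 promoters of this length, 32.7% held a GC box and 12.4% a TATA box, while the shares were 6.75% for the AP-1 site, 1.55% for the cAMP element, 1.41% for the NF-kB site, 3.45% for the composite, 10.2% for the antioxidant element, 12.6% for the TEAD site and 6.02% for the E-box. The windows of Adamts14, Adamts1, Adamts12 and Adam8 were 76.4%, 65.6%, 63.2% and 52.8% G or C, against a median of 52.4%. A match is a description of the letters, not evidence of binding.

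Among the tested members on log2(FPKM + 1), Adamts1 and Adamts5 had the largest falls. On other scales some less expressed members lay further down. In the added voom fit described further on, Adamts1 stood at -0.31 and Adam33 at -0.35. Of the members outside the main test, Adamtsl3 stood there at -1.15, Adamts17 at -0.78, Adam22 at -0.61 and Adamtsl2 at -0.33. Of these less expressed members that fit called only Adamtsl3. Adamts1 and Adamts5 both encode secreted proteases that cut the large proteoglycans aggrecan and versican. In RefSeq's gene order Adamts1 and Adamts5 are neighbours among the protein coding genes of chromosome 16. Adamts1 measured 26.8, 26.8, 25.7 and 25.2 FPKM in DMSO 1 to 4 and 20.3, 21.3, 21.3 and 21.5 FPKM in DoxSa 1 to 4. Every DoxSa library lay below every DMSO library. Adamts1 thus fell, with a log2 difference of -0.29 ± 0.04 (SE, limma adjusted p = 8.80e-04, n = 4 per group). Adamts5 measured 29.3, 29.6, 30.3 and 30.7 FPKM in DMSO and 23.8, 23.1, 25.4 and 26.0 FPKM in DoxSa, again without overlap. Its log2 fold change was -0.28 ± 0.04 (limma adjusted p = 0.00344). Adamts1 and Adamts5 kept their calls under each of the 18 alternatives, with an adjusted p of at most 0.00738 and 0.0224.

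The other proteoglycan-cutting members were lower in level and were not called. Adamts4, the third classical aggrecanase, measured 4.54, 3.88, 4.21 and 4.08 FPKM in DMSO and 4.60, 5.37, 4.64 and 4.73 FPKM in DoxSa. Its groups were apart by a narrow margin, with the DoxSa libraries above, opposite in sign to Adamts1 and Adamts5. Adamts4 differed by 0.17 ± 0.06 on the log2 scale and did not pass the test (SE, limma adjusted p = 0.116). Adamts9 and Adamts15, further versican-cutting members, had log2 fold changes of -0.11 (95% interval -0.24 to 0.02) and -0.03 (-0.18 to 0.12), and their groups overlapped. Adamts8 was read 2, 3, 1 and 2 times in DMSO and 0 times in each DoxSa library, where 0 reads allow for up to 3, and Adamts20 was read at most 5 times in a library, so no change could be judged at this depth.

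Adamts12 encodes a secreted protease that cuts cartilage oligomeric matrix protein, and it was the third member that fell. It measured 15.8, 15.9, 15.3 and 16.9 FPKM in DMSO and 13.7, 13.2, 14.2 and 14.2 FPKM in DoxSa. The groups were apart, by -0.19 ± 0.04 on the log2 scale (SE, limma adjusted p = 0.0196). The call of Adamts12 was lost without DoxSa 1 (-0.19, adjusted p = 0.0569) or without DoxSa 2 (-0.17, adjusted p = 0.0615), and with no filter on low values (adjusted p = 0.0562), over a range from 0.00434 to 0.0615 in all alternatives. Of the remaining ADAMTS genes outside the proteoglycanase and procollagen groups, Adamts10, which binds fibrillin, had a log2 fold change of -0.16 (95% interval -0.30 to -0.03, limma adjusted p = 0.162) and Adamts6 one of 0.06 (-0.05 to 0.16).

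The falls of Adamts1, Adamts5 and Adamts12 were measured in libraries in which contractile genes of the smooth muscle list were also lower. Of the 7 genes of that marker list 6 were tested, and Acta2, Tagln, Myh11 and Cnn1 fell. Cspg4 and Des were not called, and Rgs5 was too low to test. Myh11 reached the minimum of 0.5 FPKM only through its DMSO level, as its mean in DoxSa lay below that minimum. The mean of Acta2 was 289 ± 19.3 FPKM with DMSO and 184 ± 8.98 FPKM with DoxSa (SD, n = 4). The part of these genes, or of the cells that express them, in the falls was not tested. Progenitor and fibroblast markers (8 listed, 6 tested) summed to 691 to 856 FPKM in DMSO and 811 to 879 FPKM in DoxSa, and 0 were called by limma. Without Ly6a, the highest of them, the sums were 390.7 to 404 FPKM in DMSO and 376 to 390.6 FPKM in DoxSa, just apart. Dlk1, Cd34 and Thy1 were lower at an unadjusted limma p of 0.00527, 0.0152 and 0.0232, and Ly6a was higher at 0.0273. For Pdgfra and Col15a1 the unadjusted limma p was 0.805 and 0.371. Cd34 measured 4.33 ± 0.438 and 3.50 ± 0.572 FPKM (SD, n = 4) and Dlk1 3.94 ± 0.266 and 3.17 ± 0.397 FPKM, the groups of Dlk1 being apart.

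Among the members that cut the amino end off fibrillar procollagens, Adamts14 rose and Adamts2 did not pass the test. Adamts14 was read 86, 85, 106 and 73 times in DMSO and 183, 165, 149 and 168 times in DoxSa. This corresponded to 0.387, 0.399, 0.479 and 0.328 FPKM against 0.813, 0.764, 0.669 and 0.747 FPKM. The lowest DoxSa library thus lay above the highest DMSO library, and the ratio of the group means was 1.88. The log2 fold change was 0.32 ± 0.05 (SE, limma adjusted p = 0.00665), a scale that understates changes of genes near or under 1 FPKM. On recovered reads, where no constant is added, voom gave 0.92 ± 0.15 for Adamts14. Adamts14 reached the minimum of 0.5 FPKM only through the group where it is high, so its entry into the test depended on its rise. With no filter on low values it was called as well (adjusted p = 0.0150), as under each alternative that included the gene, and a minimum mean of 2 FPKM leaves it out.

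Adamts2, the main procollagen N-proteinase of skin and tendon, stood far above Adamts14 in level. It measured 68.2, 65.1, 62.5 and 62.9 FPKM in DMSO and 63.5, 64.8, 67.4 and 64.3 FPKM in DoxSa. The groups overlapped throughout, and the log2 fold change of 0.01 had a 95% interval from -0.07 to 0.09. Its sign turned with quantile normalization, with median-of-ratios scaling and without DMSO 3, DMSO 4 or DoxSa 3. Adamts3, the third gene of this group, had 42 to 77 reads per library and was too low to be tested.

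**Figure D2:**
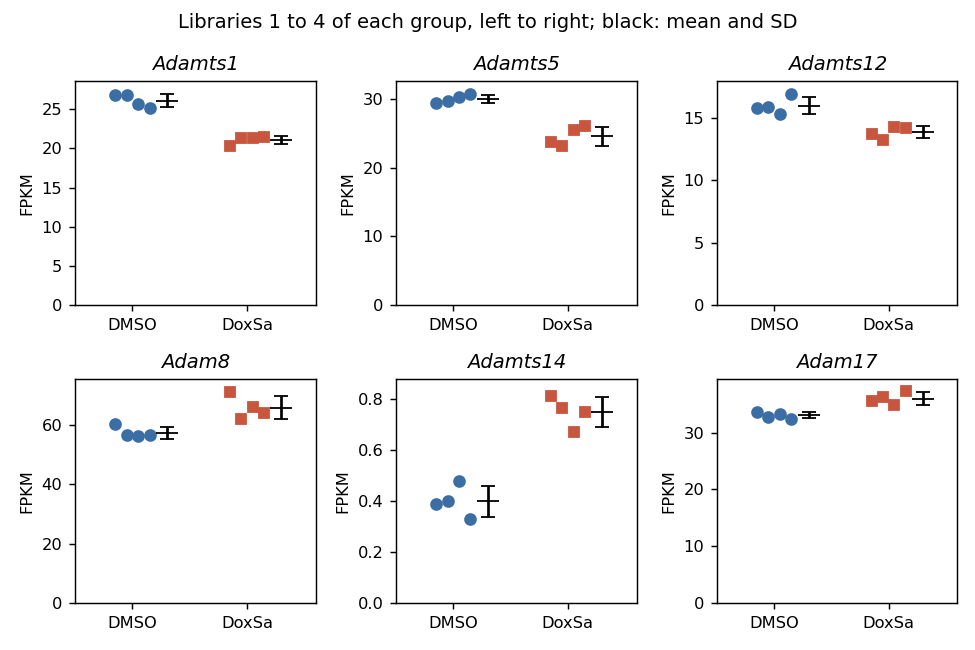
FPKM in libraries 1 to 4 of each group (left to right) for the 5 called members and Adam17, with the mean and SD in black and each axis starting at 0. DoxSa libraries lie below all DMSO libraries for Adamts1, Adamts5 and Adamts12 and above them for Adam8, Adamts14 and Adam17.

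Adam8 was the ADAM gene that rose. It encodes a sheddase of myeloid and other immune cells that cuts adhesion molecules and receptors. It measured 60.5, 56.6, 56.2 and 56.7 FPKM in DMSO and 71.3, 62.2, 66.0 and 64.3 FPKM in DoxSa. DoxSa 1 was highest, and the lowest DoxSa library lay above DMSO 1, the highest of its group. The log2 fold change was 0.19 ± 0.04 (SE, limma adjusted p = 0.0277). The call of Adam8 was lost when any 1 of DMSO 2, DMSO 3, DMSO 4, DoxSa 1 and DoxSa 3 was left out (0.19, 0.18, 0.19, 0.16 and 0.19, adjusted p between 0.0591 and 0.0763), with no filter on low values (adjusted p = 0.10) and with no intensity trend (adjusted p = 0.0518). Voom on recovered reads called it both in the planned fit and in the added one described further on, which gave the smallest adjusted p of the alternatives, 0.00884.

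Macrophage markers were measured beside Adam8. Of 9 tested markers Ptprc, Cd14 and Fcgr1 rose and 0 fell by limma, and none of the 9 was near 0. Among all tested genes 3.88% were called higher and 2.02% lower. Their summed level was 5280 to 6158 FPKM in DMSO and 5886 to 6337 FPKM in DoxSa, so the groups overlapped. Without Lyz2, which makes up most of the sum, it was 951 to 1062 FPKM in DMSO and 1036 to 1118 FPKM in DoxSa. Cd14 rose from 24.2 ± 1.93 to 31.6 ± 3.49 FPKM (SD, n = 4), Fcgr1 from 18.0 ± 2.41 to 22.8 ± 1.80 and Ptprc from 15.4 ± 1.496 to 18.6 ± 0.600, ratios of 1.302, 1.27 and 1.21 beside 1.15 for Adam8. Csf1r measured 101 ± 6.52 and 101 ± 4.55 FPKM (SD, n = 4) and Adgre1 172 ± 11.7 and 183 ± 7.92 FPKM, neither of them called. The part of macrophages in the change of Adam8 was not tested.

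Adam17 and Adam10 are the widely expressed sheddases, Adam17 being the enzyme that releases tumor necrosis factor and ligands of the epidermal growth factor receptor and Adam10 the one that opens Notch to signalling. Adam17 measured 33.6, 32.8, 33.3 and 32.4 FPKM in DMSO and 35.5, 36.3, 34.9 and 37.4 FPKM in DoxSa. Its DoxSa libraries all lay above the DMSO libraries, by a ratio of the means of 1.09. The log2 fold change of 0.12 ± 0.03 did not pass the test (SE, limma adjusted p = 0.0570), although voom on recovered reads called it (adjusted p = 0.041), with a range of 0.041 to 0.151 over all alternatives. Adam10 measured 23.2, 23.3, 24.4 and 24.5 FPKM in DMSO and 25.3, 25.2, 24.9 and 25.5 FPKM in DoxSa. These groups were apart too, and the log2 fold change was 0.08 ± 0.03 (95% interval 0.01 to 0.15, limma adjusted p = 0.214).

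The remaining highly expressed sheddases had narrow intervals that include 0. Adam9, the highest member, measured 81.7, 82.9, 85.7 and 85.2 FPKM in DMSO and 84.5, 84.3, 84.5 and 89.4 FPKM in DoxSa. The groups overlapped, and the log2 fold change of 0.03 had a 95% interval from -0.04 to 0.10. Adam15, known from endothelial and epithelial cells, measured 66.8, 67.8, 62.5 and 64.1 FPKM in DMSO and 63.7, 63.8, 68.0 and 65.8 FPKM in DoxSa, with an interval from -0.08 to 0.08. Adam12 and Adam19, which are linked to mesenchymal and muscle cells, had intervals from -0.11 to 0.05 and from -0.10 to 0.05. Each of these 4 intervals allows for a log2 change of at most 0.11 in size.

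Adam33, the remaining tested sheddase, was lower in each DoxSa library but was not called. It measured 0.965, 1.15, 1.15 and 0.890 FPKM in DMSO and 0.825, 0.834, 0.795 and 0.792 FPKM in DoxSa. The log2 fold change was -0.17 ± 0.06 (SE, limma adjusted p = 0.118). By voom it was -0.35, again not called (adjusted p = 0.0991). Adam28, a sheddase of lymphocytes, was read 1 and 4 times in DoxSa 3 and DoxSa 4 and 0 times in the other 6 libraries.

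The ADAM genes without a working active site act in adhesion, mainly in nerve tissue, where they bind secreted LGI proteins. Adam23 was the only one of the 3 in the main test. It measured 15.4, 15.6, 14.8 and 14.7 FPKM in DMSO and 15.2, 15.4, 14.6 and 14.5 FPKM in DoxSa. The groups overlapped, with a log2 fold change of -0.02 (95% interval -0.10 to 0.07). Adam11 and Adam22 were read 7 to 32 and 11 to 40 times per library, and the added voom fit gave -0.29 (adjusted p = 0.801) and -0.61 (adjusted p = 0.349). The LGI genes Lgi2 and Lgi4, among the partner genes described below, measured 11.6 and 12.8 FPKM in DMSO and 12.2 FPKM each in DoxSa.

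Of the 10 other ADAM genes, known mainly from testis, 9 were too low to be tested. Adam5 passed the minimum with 47 to 80 reads per library. It was read 70, 49, 55 and 47 times in DMSO and 80, 72, 80 and 74 times in DoxSa. The groups were apart in FPKM, but the log2 fold change of 0.16 ± 0.05 did not pass the test (SE, limma adjusted p = 0.134). By voom the difference of Adam5 was 0.47 (adjusted p = 0.143), and the gene reached the minimum only through its DoxSa libraries. In RefSeq's gene order Adam18, Adam3, Adam5, Adam32 and Adam9 follow one another on chromosome 8. Whether any of these genes overlap was not examined, and the sources used here name no strandedness. Adam32, next to both Adam5 and Adam9, was read 3 to 13 times per library, against at least 14269 reads for Adam9.

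The 3 tested ADAMTSL genes were not called, and the groups of 1 of them were apart by a narrow margin. Adamtsl5 measured 4.60, 4.63, 4.29 and 4.52 FPKM in DMSO and 4.65, 4.86, 4.66 and 5.37 FPKM in DoxSa. On the log2 scale this was a difference of 0.09 (95% interval -0.02 to 0.20). Adamtsl1 measured 4.12, 4.18, 3.56 and 3.36 FPKM in DMSO and 2.85, 3.10, 3.59 and 3.31 FPKM in DoxSa. Its groups overlapped through DoxSa 3. The log2 fold change was -0.19 ± 0.07 (SE, limma adjusted p = 0.168). Adamtsl4, which binds fibrillin in the eye and elsewhere, had a log2 fold change of -0.01 (95% interval -0.18 to 0.16), and its sign turned under 5 of the 18 alternatives.

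Below the minimum of 0.5 FPKM stood 23 members, of which Adamts7, Adamtsl2, Adamts3 and Adamtsl3 were highest. Adamts7 just missed it with a mean of 0.4997 FPKM, while Adam5 just passed it with 0.517 FPKM. Adamtsl3 was read 46, 73, 36 and 56 times in DMSO and 19, 18, 33 and 24 times in DoxSa, so every DoxSa library lay below every DMSO library. In an added voom fit on all 14306 genes with a mean of at least 10 reads, chosen after the data were seen, Adamtsl3 was called lower, by a log2 difference of -1.15 ± 0.30 (SE, adjusted p = 0.0261). Of all genes in that fit 6.76% were called, and of its 31 members 3 were higher and 4 lower. With no filter on low values, limma on log2(FPKM + 1) did not call Adamtsl3 (adjusted p = 0.146). Of the other 7 members that the added fit could reach and the main test could not, Adamts7 had a log2 fold change of 0.24 (95% interval -0.06 to 0.55) and Adamts17 one of -0.78 (-1.66 to 0.11), and none was called.

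**Figure D3:**
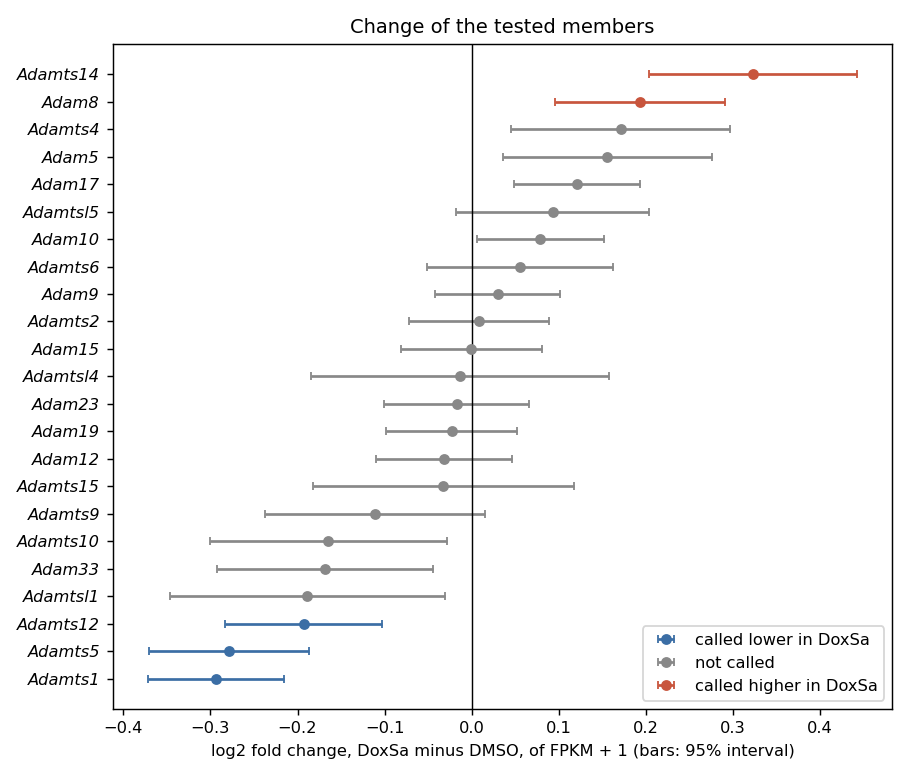
log2 fold change of FPKM + 1 (DoxSa minus DMSO) with its 95% interval for the 23 tested members, sorted by size. Adamts14 and Adam8 are called higher, Adamts12, Adamts5 and Adamts1 lower, and the 18 others are in grey.

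Inhibitors, activators and substrates of these proteases were followed through 4 lists with 105 genes in the table, of which 84 were tested and 21 called. The lists were chosen with earlier results of these data known, so their share of calls is not a test against that of all genes. The lists' median log2 fold changes were -0.15 for inhibitors, 0.01 for activation and trafficking, 0.02 for ADAM substrates and -0.04 for ADAMTS substrates, beside 0.01 over all tested genes, of which 5.90% were called. Among the inhibitors 1 of 6 tested genes rose and 2 fell. Timp3, the tissue inhibitor that binds the matrix and blocks Adam17, Adamts4 and Adamts5, had the largest change of the 84 on log2(FPKM + 1), with 64.0, 79.0, 70.0 and 65.1 FPKM in DMSO and 28.1, 38.0, 37.4 and 39.0 FPKM in DoxSa. The groups were far apart, by -0.95 ± 0.10 on the log2 scale (SE, limma adjusted p = 3.12e-04). By voom Timp3 stood at -0.97, and Btc, described with the substrates, at 1.04. Reck, a membrane-anchored inhibitor of metalloproteinases, fell with -0.26 ± 0.04, and Timp1, which inhibits Adam10 but few other members, rose with 0.38 ± 0.05. Timp2 (-0.07, 95% interval -0.15 to 0.02) and A2m (0.06, -0.07 to 0.18) did not pass the test.

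Of 17 tested genes of activation and trafficking, 1 fell and 0 rose by limma (3 higher at an unadjusted p under 0.05, and 1 by voom). The gene that fell was Pcsk6, a proprotein convertase of the furin type, the kind of enzyme that removes the inhibitory propeptide of ADAM and ADAMTS proteins. It measured 10.6, 10.9, 10.2 and 9.94 FPKM in DMSO and 6.49, 6.77, 7.58 and 7.27 FPKM in DoxSa. The groups did not overlap, and the log2 fold change was -0.51 ± 0.05 (SE, limma adjusted p = 2.91e-04). Furin itself stood at 30.4 and 30.6 FPKM, with a log2 fold change of 0.01 (95% interval -0.07 to 0.09). Sh3pxd2a and Sh3pxd2b, adaptors of podosomes that bind ADAM tails, had log2 fold changes of -0.03 and 0.13 and were not called. Rhbdf2, which carries Adam17 to the cell surface and is named here after its value was seen, measured 5.27 ± 0.281 and 6.05 ± 0.202 FPKM (SD, n = 4), with groups apart and a limma adjusted p = 0.0584.

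Of 36 tested ADAM substrates, 9 rose and 0 fell by limma (3 lower at an unadjusted p under 0.05, and 2 by voom). Limma called 1 substrate lower with a minimum mean of 2 FPKM, quantile normalization, median-of-ratios scaling or library quality weights. The count called lower was also 1 with the replicate block and without DMSO 4. The 9 were Hbegf and Btc, ligands of the epidermal growth factor receptor, Kitl, Csf1 and Tnfsf11, which are membrane-bound growth factors or cytokines, Cxcl16, a membrane-bound chemokine, the adhesion molecules Cd44 and Icam1, and the proteoglycan Sdc1. Btc entered the test only through its DoxSa level (0.431 FPKM on average in DMSO, 0.835 in DoxSa) and was not called with no filter (adjusted p = 0.0924). On log2(FPKM + 1) their fold changes lay between 0.12 (Csf1) and 0.45 (Hbegf), a scale that understates the low genes. With a pseudocount of 0.1 Hbegf stood at 0.67 and Btc at 0.879, and by voom at 0.708 and 1.04. Cd44 measured 27.5, 26.0, 27.9 and 24.8 FPKM in DMSO and 32.8, 34.0, 31.6 and 32.2 FPKM in DoxSa, and Tnfsf11 2.81, 2.70, 2.57 and 2.49 FPKM against 3.40, 4.76, 3.78 and 3.93 FPKM. All of these DoxSa values lay above the DMSO values. Aplp2, Tnfrsf1a and Lrp1, the highest substrates that were not called, had log2 fold changes of -0.02, 0.02 and -0.10.

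Single libraries decided several of these substrate calls, and 4 of the 9 were called in every left-out-library fit (Cd44, Icam1, Sdc1 and Tnfsf11). Kitl was not called without DoxSa 1 (0.40, adjusted p = 0.0527). Hbegf was not called without DMSO 3, DMSO 4, DoxSa 1 or DoxSa 2 (adjusted p between 0.0517 and 0.0656), and Btc without DMSO 2 or any 1 of the DoxSa libraries (0.0502 to 0.0653). Of the fits that left out a library, Csf1 was called only in the one without DMSO 4 (otherwise 0.0605 to 0.0847), and Cxcl16 only in the one without DMSO 1 (otherwise 0.0921 to 0.127). Without DoxSa 1, 4 of the substrates were called higher, and 5 without DoxSa 2. Median-of-ratios scaling and the fit with no intensity trend also ended the calls of Csf1 (adjusted p = 0.0773 and 0.0757) and Cxcl16 (0.0515 and 0.0757), and Cxcl16 was called under 3 of its 17 alternatives in all. Testing genes of every level kept 3 of the 9 (Cd44, Csf1 and Sdc1). The macrophage markers given beside Adam8 were measured in the same libraries, and their part in these changes was not tested.

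Of 25 tested ADAMTS substrates and fibrillin-side genes, 2 rose and 6 fell. Vcan, the gene of versican, and Has2, which makes the hyaluronan that versican binds, were the ones that rose. Vcan measured 21.3, 22.8, 22.5 and 23.1 FPKM in DMSO and 28.4, 25.5, 25.8 and 27.2 FPKM in DoxSa. Every DoxSa library lay above the DMSO libraries (log2 fold change 0.24 ± 0.04, SE, limma adjusted p = 0.00784). Adamts1 and Adamts5, whose products cut versican, were lower in the same libraries. All of these are transcript levels, and a link between the changes was not tested. Has2 rose with 0.35 ± 0.06.

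The 6 that fell were Fbn1 and Fbn2, the fibrillin genes, Thbs1, the gene of thrombospondin 1, the collagen gene Col5a1, the small proteoglycan gene Fmod and Lox, whose product cross-links collagen. Fbn2 measured 6.12, 6.24, 6.83 and 5.12 FPKM in DMSO and 3.28, 3.35, 3.62 and 3.84 FPKM in DoxSa, and its log2 fold change was -0.64 ± 0.07. Thbs1 fell with -0.48 ± 0.04 and Fbn1 with -0.23 ± 0.04. Bgn, Col3a1 and Col1a1, the highest genes of the list, had log2 fold changes of 0.04, 0.04 and -0.10 and were not called. Lox was not called without DoxSa 2 (adjusted p = 0.0503), Col5a1 without DMSO 2, DMSO 4, DoxSa 1, DoxSa 2 or DoxSa 4 (0.0509 to 0.0823) and Fmod without any 1 DMSO library or DoxSa 3 (0.0622 to 0.095). With no filter on low values 1 gene of this list was called higher and 3 lower, and 10 of the 21 called partner genes in all were not called. The part of the contractile genes given beside Adamts12 in these falls was not tested.

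**Figure D4:**
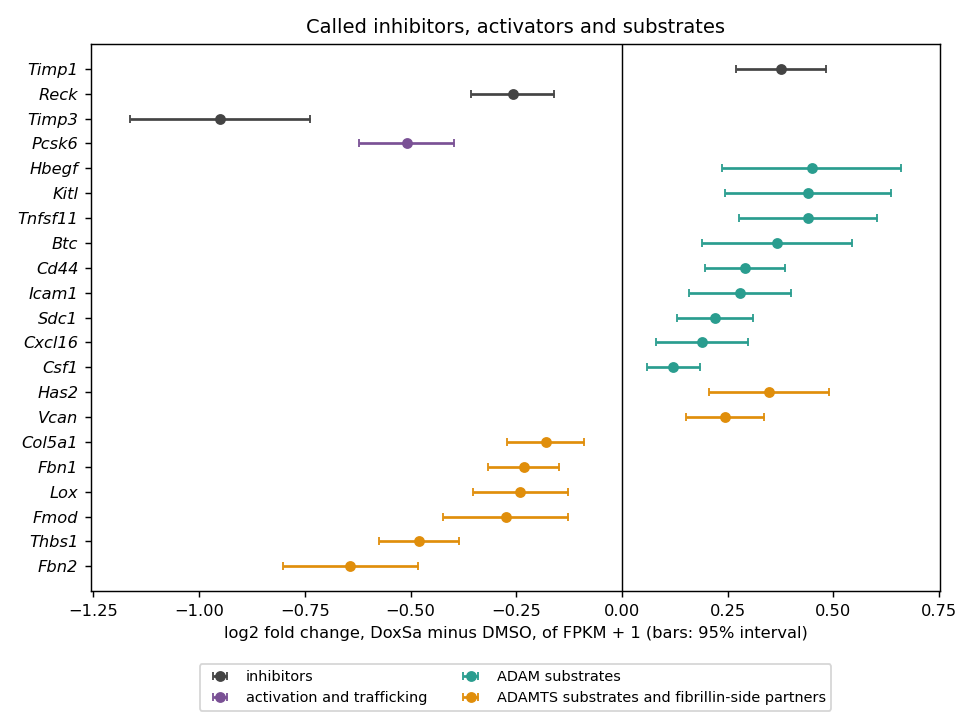
log2 fold change of FPKM + 1 (DoxSa minus DMSO) with its 95% interval for the 21 called genes of the 4 partner lists, coloured by list. Timp3 and Fbn2 lie farthest to the left, at -0.95 and -0.64, and the 9 called ADAM substrates all lie to the right of 0.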

How the data were processed

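Libraries of DMSO and DoxSa cultures, 4 each, were grouped and numbered from their titles. The authors deposited 1 annotated table of FPKM per gene. HISAT2, HTSeq and GRCm39 are named per the submitters' processing notes, while the sources used here name no version, annotation or strandedness. FPKM leaves differences in library composition uncorrected.

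Library totals, gene lengths and whole reads were recovered from the steps of the FPKM values. For 12060 of 12060 tested genes all libraries came out whole (within 0.001). The test was limma 3.58.1 (R 4.3.3) with an intensity trend, on log2(FPKM + 1) of genes averaging 0.5 FPKM or more, with Benjamini-Hochberg adjustment over all of them. SE and 95% intervals are those of the moderated fit. Alternatives were a pseudocount of 0.1, no filter, a minimum mean of 2 FPKM, quantile or median-of-ratios scaling, no trend, library weights, voom on recovered reads, a replicate block, each library left out, and an added voom fit from a mean of 10 reads.

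Every called member was named, with the 6 highest, the highest of each role group, Adam10 and Adam17, those with an adjusted p under 0.1, the 4 highest untested members, and called partner genes with up to 3 uncalled ones per list. Of 106 partner entries 105 matched the table (Pzp did not). The values of a further uncalled inhibitor are not reported here. Members and lists were chosen with earlier results of these data known. A planned search of protein sequences for the zinc-binding motif was not run, and Adamts5 has no promoter printed. The script was tested on simulated data. Python 3.11.15, numpy 2.4.6, pandas 2.3.3 and matplotlib 3.10.9 were used.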

Additional observations from a re-analysis of the deposited data

Results flagged for a closer look

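Over 88 groups of 4 libraries (44 genes in 2 groups), 6 had 1 library far from the other 3, by a gap that took up more of the group's range than Dixon's 95% critical value. Chance flags about 1 in 20 groups. Adam9 stood at 89.4 FPKM in DoxSa 4 against 84.3 to 84.5 in the other DoxSa libraries. Adam8 stood at 60.5 FPKM in DMSO 1 against 56.2 to 56.7, and Adamts4 at 5.37 FPKM in DoxSa 2 against 4.60 to 4.73. DoxSa 1 was the low library for the other 3 genes, with Adamts1 at 20.3 FPKM against 21.3 to 21.5, Timp3 at 28.1 FPKM against 37.4 to 39.0 and Btc at 0.782 FPKM against 0.849 to 0.858. Adamts1 and Timp3 were called without DoxSa 1 as well, Btc was not, and the cause was not tested.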

How the results depend on the processing

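Of the 5 called members, Adamts1, Adamts5 and Adamts14 kept their call in all of the alternatives that tested them, and Adam8 and Adamts12 did not, as given beside their values. Of the 410 values of single members under an alternative, 382 kept sign and call. The count of members called higher, 2, was 1 with no filter on low values, with a minimum mean of 2 FPKM and with no intensity trend, and 1 to 2 over left-out libraries, while the count called lower, 3, was 2 to 3. ADAM genes called higher numbered 0 with no filter and with no trend, 2 by voom and 0 to 1 over left-out libraries, and ADAMTS genes called higher 0 with a minimum of 2 FPKM. Partner genes called higher, 12, were 6 with no filter. Over all genes 158 were higher and 108 lower with no filter, and 234 to 486 higher and 152 to 234 lower over left-out libraries. Those counts were 234 and 152 without DoxSa 2 and 250 and 154 without DoxSa 1, and 158 were lower without DMSO 2. The members' median was -0.0388 with quantile normalization and lay between -0.0235 and 0.0113 over left-out libraries. Signs turned only for members near 0. Adamts2 was -0.0117 with quantile normalization, -0.0089 with median-of-ratios scaling and -0.00931 to 0.0334 over left-out libraries. With library quality weights Adam15 was 0.00374 and Adamtsl4 0.00821. Over left-out libraries Adam15 lay between -0.0208 and 0.0177, Adamtsl4 between -0.0819 and 0.0207 and Adamts15 between -0.0933 and 0.00895. The causes were not tested. With the replicate number as a block, 2 members were called higher and 3 lower, 10 partner genes higher and 10 lower, and 415 and 209 of all genes. The block ended the calls of Csf1 (adjusted p = 0.0862) and Cxcl16 (adjusted p = 0.0721). Same-numbered libraries did not deviate together (correlations of deviations from -0.0989 to 0.0654 over 4 pairs, with 1 of 8 libraries closest to its own number), so the numbers were not taken to pair the samples.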
